A study of Rattus norvegicus with 14 samples.

Results

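The genes of the vitamin D receptor, its dimer partners and the enzymes that make and break down its hormone were examined in rat plantaris, a fast-twitch calf muscle. The set was named gene by gene and holds 10 of the 19769 gene symbols on the array: Vdr, Rxra, Rxrb, Rxrg, Cyp27b1, Cyp27a1, Cyp24a1, Cyp2r1, Pdia3 and Dhcr7. They were read by 11 probes, 1 for each gene and a second one for Cyp24a1. Wistar rats were on 3 diets: control food held 1000 IU of vitamin D per kg (n = 4), depletion food was depleted of it (n = 6), and the repletion animals (n = 4) first lacked vitamin D and then had it restored. Age, sex, feeding time and how much vitamin D the other diets held are not stated in the labels. Total RNA of each of the 14 muscles went on 1 array in 1 colour, and by their titles the samples are biological replicates. The series names the effect of vitamin D depletion and repletion on skeletal muscle as its question. For depletion replicate 1 the labels disagree: the title says depletion and the diet field repletion. That array was kept as depletion, and values without it are given beside the results.

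Vitamin D starts from 7-dehydrocholesterol, a sterol that ultraviolet light converts in the skin and that Dhcr7 otherwise turns into cholesterol. Cyp2r1 and Cyp27a1, mainly in liver, add the first hydroxyl group, Cyp27b1, mainly in kidney, adds the one that makes the active hormone, and Cyp24a1 degrades both forms. The hormone binds Vdr, a nuclear receptor that pairs with a retinoid X receptor (Rxra, Rxrb or Rxrg) and sits on response elements of its target genes. Cyp24a1 is among the most strongly induced of these targets, which makes it a usual readout of receptor activity. Pdia3, a disulfide isomerase of the endoplasmic reticulum, has also been described as a membrane binding protein for the hormone. Adult skeletal muscle is known for low Vdr.

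The probe sequences are shown because each gene was read at a single stretch of its transcript, and for Cyp24a1 at a pair of stretches. Each probe is 60 bases long and is printed 5′ to 3′ as the array files give it, whole for Cyp27a1, Pdia3 and the second Cyp24a1 probe and as its first 30 bases for the others. No letters are in capitals, since no part of a probe was singled out.
Vdr: ggggctcactcactgccaagatgaccaaat
Rxra: agctgagctcgctgttgagcccaagactga
Rxrb: actgtacatccccaggttgacttaaatgtc
Rxrg: gtagccaagcctctgtacatataattggtt
Cyp27b1: taggaaagtgaatctctccttgccttacag
Cyp27a1: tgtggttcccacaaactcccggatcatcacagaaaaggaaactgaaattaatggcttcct
Cyp24a1, first probe: atataaagacatgaggtacccaatttagta
Cyp24a1, second probe: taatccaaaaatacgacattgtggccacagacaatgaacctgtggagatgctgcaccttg
Cyp2r1: gctcggatggaaatgttcttgttttttaca
Pdia3: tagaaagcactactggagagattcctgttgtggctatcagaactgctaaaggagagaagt
Dhcr7: atccctggctgacttgataaagtctgtctg

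The files place the probes on the rat assembly rn4, at chr7:136567655-136567714 for Vdr, chr3:6678240-6678299 for Rxra, chr20:4954595-4954654 for Rxrb and chr13:83298626-83298685 for Rxrg. The Cyp27a1 probe lies at chr9:74067772-74067831, the Cyp2r1 probe at chr1:172593244-172593303, the Pdia3 probe at chr3:108236022-108236081 and the Dhcr7 probe at chr1:204258565-204258624. The first Cyp24a1 probe lies at chr3:161540181-161540240 and the second at chr3:161542181-161542240, 2000 bases away. The files list the Cyp27b1 probe as unmapped. An rn4 gene model was not used here, so exon or untranslated position is not stated, and the files do not name a strand. The 3 retinoid X receptor probes shared runs of at most 8 bases with each other. The longest run that any of the 11 probes shared with a probe of another gene was 15 bases, on either strand.

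A level here is the log2 of a probe's signal over the 75th percentile of its own array, so each unit is a doubling and 0 is a bright probe. Probes differ in how well they bind, so levels are compared between arrays and not between genes. The 75th percentile stood at signals of 1781 to 2387, and the scanner software marked 82.8% to 88.1% of an array's spots as well above background. The arrays came from 5 slides, and each slide held 2 or 3 diets. Slide 1 held control replicates 1 and 2, depletion replicate 1 and repletion replicate 1, and slide 2 held control replicate 3, depletion replicate 2 and repletion replicate 2. Slide 3 held depletion replicates 3 and 4 and repletion replicate 3, slide 4 held control replicate 4 and depletion replicate 5, and slide 5 held depletion replicate 6 and repletion replicate 4. Differences between diets are log2 differences ± SE from limma's fit over all 26391 probes that passed the filter on dim signal, with slide as a block. The p-values measure the spread between these muscles, and precision is limited by how many arrays there are.

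The labelled tissue matched its markers. The 7 muscle fibre markers on the array, out of 8 listed, had a summed level (the mean of their log2 levels) of 7.56 to 8.01 in control, 7.52 to 8.01 after depletion and 7.56 to 8.04 after repletion. None of the listed markers of other cell types on the array failed the filter on dim signal. The 8 macrophage markers had summed levels of -1.72 to -1.17 in control, -1.60 to -0.53 after depletion and -1.03 to -0.87 after repletion, so control and repletion did not overlap. The 5 Schwann cell markers ran from -1.76 to -0.52, from -1.79 to -1.06 and from -1.30 to 1.12 in the same order, and 3 of 6 red blood cell markers from -1.32 to -0.82, from -1.28 to 0.97 and from -1.05 to -0.30. Markers of satellite cells, endothelium, fibro-adipogenic cells and adipocytes overlapped between all diets. The macrophage case was the only non-overlap among these marker sets, and slide was not taken into account. Of all single probes tested, 1.16% did not overlap between control and repletion. The part of these cell types in the differences below was not tested. In whole muscle, fewer cells of a type and less RNA per cell cannot be told apart.

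Of the 10 genes, 8 were measurable and 2 were not. The probes of Vdr, Rxra, Rxrb, Rxrg, Cyp27b1, Cyp27a1, Pdia3 and Dhcr7 were well above background on all 14 arrays, so none of them passed the filter through 1 diet alone. Cyp2r1, the main liver enzyme of the first hydroxylation, was not well above background on any array. Its level ran from -9.79 to -8.69 in control, from -9.99 to -8.15 after depletion, with a median of -9.61, and from -9.99 to -9.40 after repletion, below the lowest level that counted as well above background (-7.85 to -7.34, depending on the array).

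Cyp24a1, the enzyme that degrades the hormone, was not well above background on any array at its first probe, where all levels lay between -10.02 and -8.96. The second probe was well above background on 2 of 14 arrays. Those were control replicate 4, at -6.11, and depletion replicate 5, at -7.25, which are the arrays of slide 4. On the other control arrays this probe was at -7.98, -7.76 and -9.17, on the other depletion arrays between -9.51 and -8.05, and on the repletion arrays at -7.47, -9.28, -9.50 and -7.21. The diets overlapped, and no fold is given for a probe that mostly carries a bound. Neither Cyp24a1 nor Cyp2r1 was tested between diets.

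**Figure D1:**
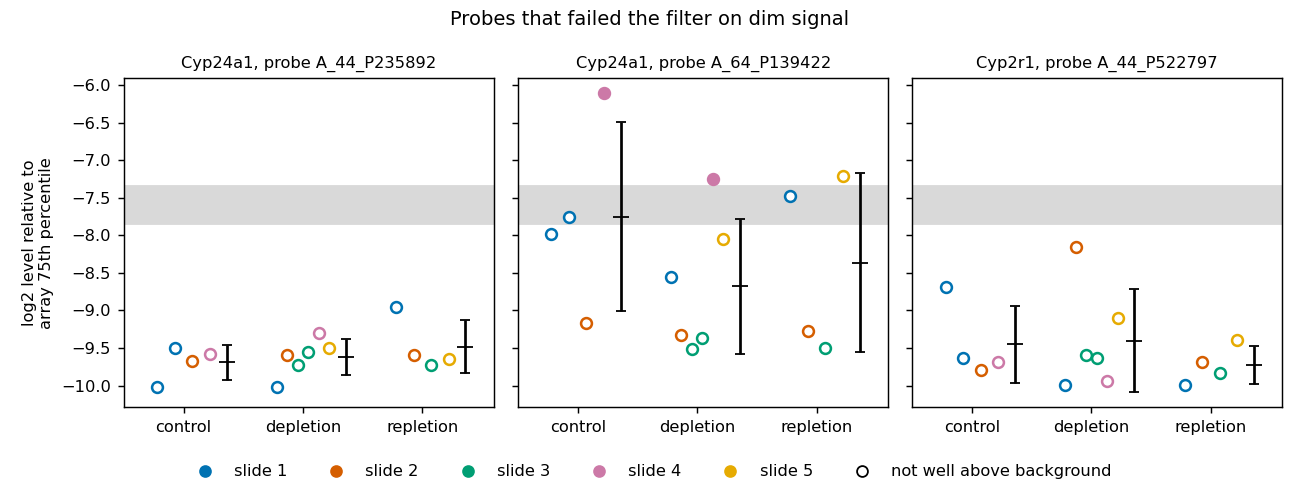
Log2 level relative to the array's 75th percentile (vertical axis) of both Cyp24a1 probes and the Cyp2r1 probe on each of 14 arrays, by diet and coloured by slide; open circles were not well above background, bars are mean ± SD and the grey band spans the lowest well-above-background level of each array (-7.85 to -7.34). Only the 2 arrays of slide 4 have filled circles, at the second Cyp24a1 probe.

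No member differed between any pair of diets at an adjusted p under 0.05 in limma's test. The 8 measurable genes gave 24 differences. Of these, 0 passed the adjusted threshold, 2 had an unadjusted p under 0.05, and in 0 of them did the arrays of the 2 diets lie apart without overlap. Over all probes tested, the adjusted test called 0 of 26391 in each comparison (0%), and the F test over the 3 diets called 0 as well. For depletion against control, 4.83% of all probes had an unadjusted p under 0.05 and 0.860% did not overlap. The corresponding shares were 3.47% and 0.315% for repletion against depletion, and 1.99% and 1.16% for repletion against control. The 2 members with an unadjusted p under 0.05 are read against these shares, and each gene is described by its levels and intervals. Adjusted p ran from 0.832 to 0.936 over the members for depletion against control, from 0.933 to 0.983 for repletion against depletion, and was 1.00 throughout for repletion against control.

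**Figure D2:**
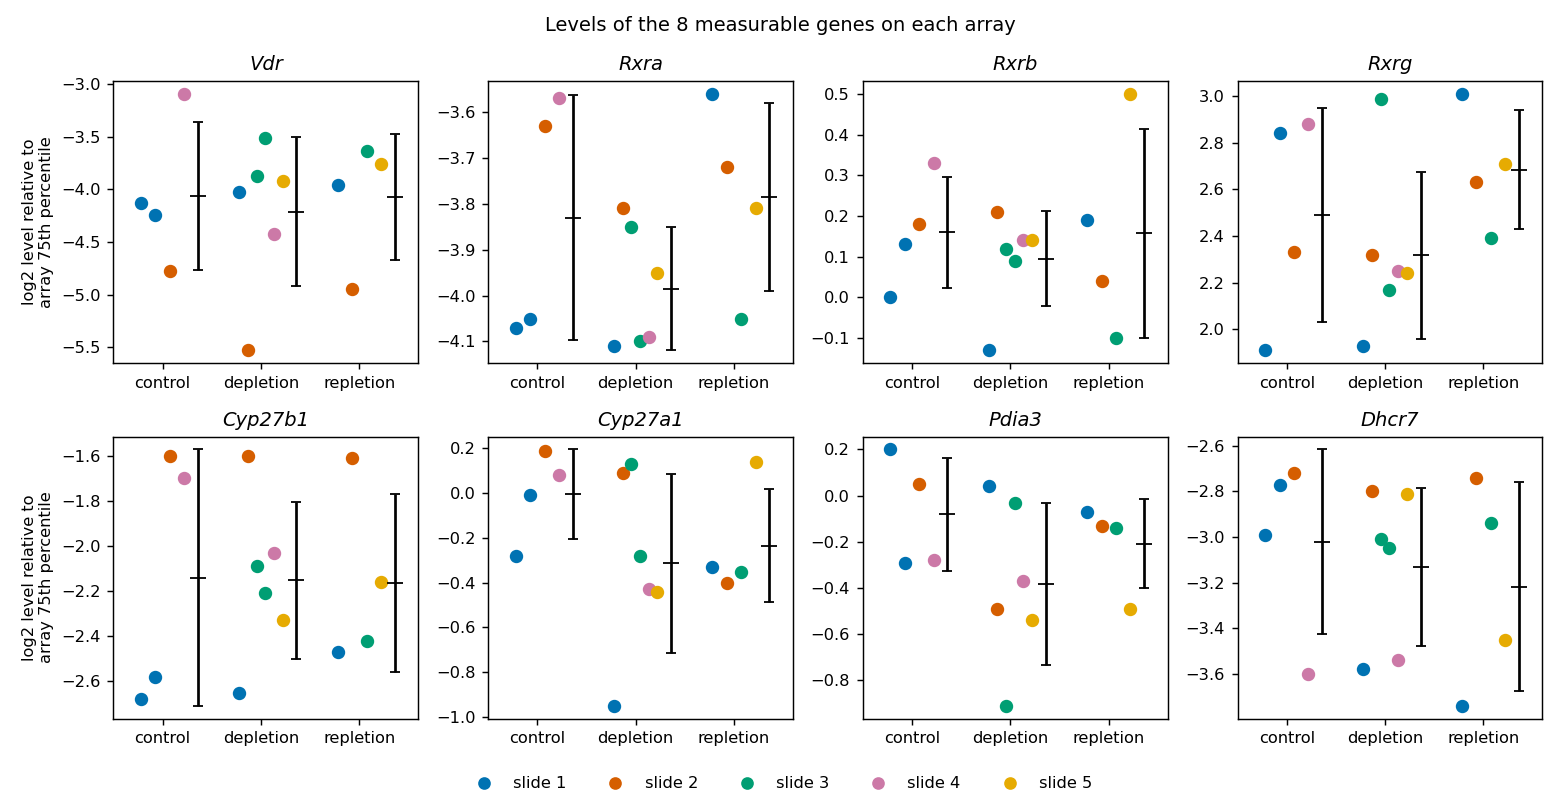
Log2 level relative to the array's 75th percentile (vertical axis, own scale per gene) of the 8 measurable genes on each of 14 arrays, by diet and coloured by slide; bars are mean ± SD (n = 4, 6 and 4). The diets overlap for every gene, while Vdr is lowest and Cyp27b1 highest on the 3 arrays of slide 2.

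Vdr, the receptor itself, averaged -4.06 ± 0.71 (SD, n = 4) in control, -4.08 ± 0.60 (n = 4) after repletion and -4.21 ± 0.71 (n = 6) after depletion, an order in which no neighbours differed beyond their spread. The control arrays were at -4.13, -4.24, -4.78 and -3.09. The depletion arrays ran from -5.53 to -3.51 with a median of -3.97, and the repletion arrays were at -3.96, -4.95, -3.63 and -3.76. The lowest array of each diet was the one on slide 2. With slide as a block, Vdr was at -0.47 ± 0.23 after depletion relative to control (95% interval -0.99 to 0.05, 0.720-fold, unadjusted p = 0.0693, limma adjusted p = 0.832). The difference varied between slides. It was 0.17 on slide 1, -0.74 on slide 2 and -1.34 on slide 4, and it was -0.15 ± 0.41 without the block. Leaving out either array of slide 4 gave -0.17 ± 0.20, and leaving out depletion replicate 1 gave -0.69 ± 0.24 (unadjusted p = 0.0193, limma). With that array counted as repletion it was -0.64 ± 0.23 (unadjusted p = 0.0181, limma), and with normexp, another background correction, -0.44 ± 0.17 (unadjusted p = 0.0289, limma). Under normexp the median of all probes was itself -0.14 for depletion against control. Which members had an unadjusted p under 0.05 therefore depended on depletion replicate 1, and also on other arrays and settings. Without control replicate 2, depletion against control had an unadjusted p of 0.0393 for Vdr and 0.0971 for Cyp27a1 (limma). No probe passed the adjusted test in any of these settings. After repletion Vdr was at 0.30 ± 0.21 relative to depletion (95% interval -0.18 to 0.78, limma adjusted p = 0.933), with 0.05, 0.57, 0.06 and 0.16 on slides 1, 2, 3 and 5, and at 0.44 ± 0.20 without depletion replicate 1 or 0.46 ± 0.20 (unadjusted p = 0.0427, limma) with it counted as repletion. Repletion and control differed by -0.17 ± 0.25 (95% interval -0.74 to 0.39), 0.22 on slide 1 and -0.17 on slide 2.

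Among the partners of Vdr, Rxrg, the retinoid X receptor typical of skeletal muscle, had the widest intervals and Rxrb the narrowest. Rxrg was highest after repletion (2.68 ± 0.26, SD, n = 4), then in control (2.49 ± 0.46, n = 4), then after depletion (2.32 ± 0.36, n = 6). The repletion arrays were at 3.01, 2.63, 2.39 and 2.71, all above the depletion mean. The depletion arrays ran from 1.93 to 2.99 with a median of 2.25, and the control arrays were at 1.91, 2.84, 2.33 and 2.88. Depletion replicate 3 stood at 2.99, inside the repletion range, so the diets overlapped. The overlap rested on that array, since the next highest depletion array was at 2.32, below the lowest repletion array at 2.39. Rxrg was at 0.41 ± 0.26 after repletion relative to depletion (95% interval -0.18 to 1.00, 1.33-fold, unadjusted p = 0.148, limma adjusted p = 0.933). The value was 1.08 on slide 1, 0.30 on slide 2, -0.19 on slide 3 and 0.46 on slide 5. It was 0.22 ± 0.28 without repletion replicate 1 and 0.32 ± 0.28 without depletion replicate 1, or 0.24 ± 0.30 with the latter counted as repletion. Without repletion replicate 3 it was 0.67 ± 0.29 (unadjusted p = 0.0481, limma), and without depletion replicate 3 it was 0.56 ± 0.22 (unadjusted p = 0.0333, limma). Over all alternatives the limma adjusted p of this difference was 0.737 or higher. Depletion against control gave -0.22 ± 0.29 for Rxrg (95% interval -0.86 to 0.43), which was -0.06 without depletion replicate 1. Repletion against control gave 0.20 ± 0.31 (95% interval -0.51 to 0.90).

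Rxra, the most widely expressed retinoid X receptor, lay at -3.78 ± 0.21 (SD, n = 4) after repletion, -3.83 ± 0.27 (n = 4) in control and -3.99 ± 0.13 (n = 6) after depletion. Its control arrays were at -4.07, -4.05, -3.63 and -3.57, its repletion arrays at -3.56, -3.72, -4.05 and -3.81, and its depletion arrays between -4.11 and -3.81 with a median of -4.02. Of the 6 depletion values, 3 lay inside the range of the control arrays and 3 just below it. The differences were -0.13 ± 0.15 for depletion against control (95% interval -0.48 to 0.21), 0.20 ± 0.14 for repletion against depletion (-0.11 to 0.52) and 0.07 ± 0.17 for repletion against control (-0.31 to 0.44). The last of these was -0.14 with normexp, where the median of all probes was -0.12. Single arrays moved the Rxra differences: depletion against control was 0.00 without control replicate 4 or without depletion replicate 5, and repletion against depletion was 0.05 without repletion replicate 1. Without depletion replicate 1 the first was -0.11 and the second 0.19.

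Rxrb, the third retinoid X receptor, averaged 0.16 ± 0.14 (SD, n = 4) in control, 0.16 ± 0.26 (n = 4) after repletion and 0.09 ± 0.12 (n = 6) after depletion. The control arrays were at 0.00, 0.13, 0.18 and 0.33, the repletion arrays at 0.19, 0.04, -0.10 and 0.50, and the depletion arrays between -0.13 and 0.21 with a median of 0.13. Its range over all 14 arrays, 0.63, was the second smallest after the 0.55 of Rxra. The differences were -0.10 ± 0.13 (95% interval -0.38 to 0.18), 0.07 ± 0.12 (-0.19 to 0.33) and -0.04 ± 0.14 (-0.34 to 0.27), in the order depletion against control, repletion against depletion and repletion against control. As a fold of control, the interval for Rxrb in depleted muscle ran from 0.766 to 1.13. Without depletion replicate 1 its first difference was -0.04 and its second 0.03.

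**Figure D3:**
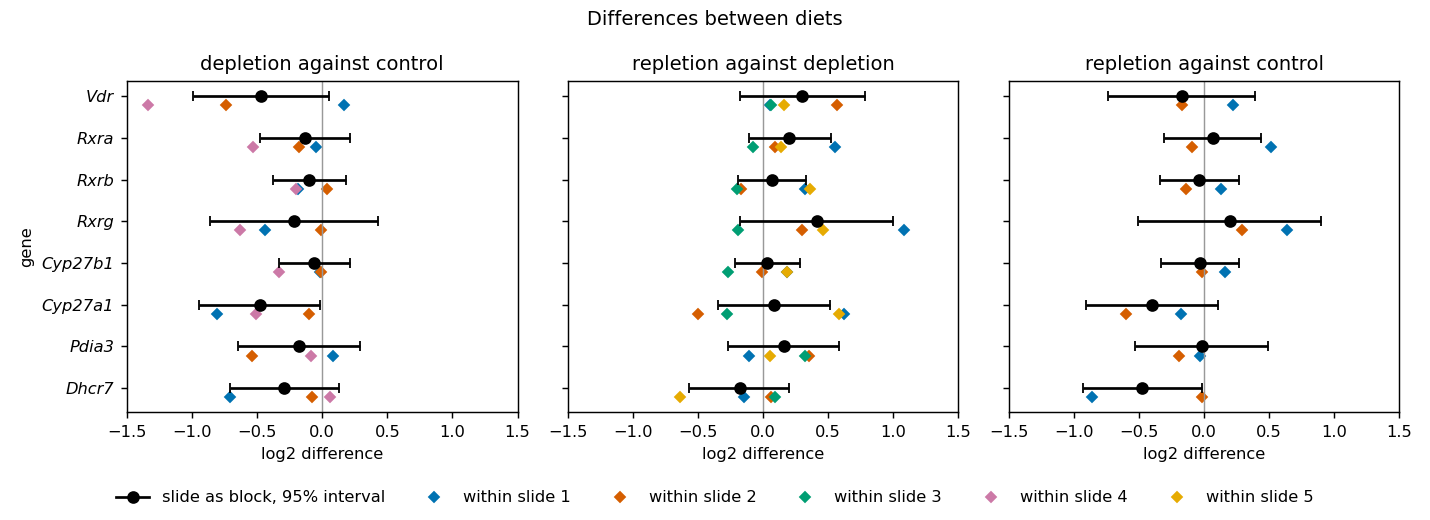
Log2 difference between diets (horizontal axis) of the 8 measurable genes in 3 comparisons; black points are limma's estimate with slide as a block and bars its 95% interval, and coloured diamonds are the differences within each slide that held both diets. The intervals include 0 except for Cyp27a1 in depletion against control (-0.95 to -0.02) and Dhcr7 in repletion against control (-0.93 to -0.02), neither of which passed the adjusted test.

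Cyp27a1, a mitochondrial enzyme that hydroxylates vitamin D and also cholesterol on the way to bile acids, gave the smallest unadjusted p of the set for depletion against control. It averaged 0.00 ± 0.20 (SD, n = 4) in control, -0.23 ± 0.25 (n = 4) after repletion and -0.31 ± 0.40 (n = 6) after depletion. The control arrays were at -0.28, -0.01, 0.19 and 0.08. The depletion arrays ran from -0.95 to 0.13 with a median of -0.35, and 2 of the 6 lay above the control mean. The repletion arrays were at -0.33, -0.40, -0.35 and 0.14. The lowest array was depletion replicate 1 and the diets overlapped. Cyp27a1 was at -0.48 ± 0.21 after depletion relative to control (95% interval -0.95 to -0.02, 0.715-fold, unadjusted p = 0.0434, limma adjusted p = 0.832), with -0.81, -0.10 and -0.51 on slides 1, 2 and 4. It was -0.32 ± 0.22 (unadjusted p = 0.190, limma) without depletion replicate 1, whose group is in doubt, and -0.31 ± 0.20 without the block. Repletion against control gave -0.40 ± 0.23 (95% interval -0.91 to 0.11), with -0.18 on slide 1 and -0.60 on slide 2, and -0.48 ± 0.21 (unadjusted p = 0.0465, limma) with depletion replicate 1 counted as repletion. Repletion against depletion gave 0.08 ± 0.19 (95% interval -0.35 to 0.51), from -0.50 on slide 2 to 0.62 on slide 1, and -0.02 without depletion replicate 1.

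Cyp27b1, which makes the active hormone, had almost the same mean in all diets: -2.14 ± 0.57 (SD, n = 4) in control, -2.15 ± 0.35 (n = 6) after depletion and -2.17 ± 0.39 (n = 4) after repletion. The control arrays were at -2.68, -2.58, -1.60 and -1.70, the repletion arrays at -2.47, -1.61, -2.42 and -2.16, and the depletion arrays between -2.65 and -1.60 with a median of -2.15. On slides 1 and 2 the arrays lay close together whatever their diet. On slide 2 control, depletion and repletion were at -1.60, -1.60 and -1.61, and on slide 1 the 4 arrays lay between -2.68 and -2.47. The other slides were less tight: depletion against control was -0.33 on slide 4, and repletion against depletion was -0.27 on slide 3 and 0.18 on slide 5. With slide as a block the SE was small, and the differences were -0.06 ± 0.12 for depletion against control (95% interval 0.796-fold to 1.16-fold), 0.03 ± 0.11 for repletion against depletion (0.857-fold to 1.21-fold) and -0.03 ± 0.13 for repletion against control (0.796-fold to 1.20-fold). Changes beyond these bounds were outside the 95% intervals of this fit, and smaller ones could not be seen with these arrays. The bounds depend on the block: depletion against control was -0.01 ± 0.27 without it and -0.06 ± 0.19 with slide as a random block. Without depletion replicate 1 the first 2 differences were -0.05 and 0.02.

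Pdia3, the disulfide isomerase, averaged -0.08 ± 0.24 (SD, n = 4) in control, -0.21 ± 0.19 (n = 4) after repletion and -0.38 ± 0.35 (n = 6) after depletion. The control arrays were at 0.20, -0.29, 0.05 and -0.28, the repletion arrays at -0.07, -0.13, -0.14 and -0.49, and the depletion arrays between -0.91 and 0.04 with a median of -0.43. The neighbours in this order overlapped. Depletion against control gave -0.18 ± 0.21 (95% interval -0.65 to 0.29), repletion against depletion 0.16 ± 0.19 (-0.27 to 0.58) and repletion against control -0.02 ± 0.23 (-0.53 to 0.49). Without depletion replicate 1 the first was -0.29 and the second 0.23.

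Dhcr7, which draws the vitamin D precursor into cholesterol, averaged -3.02 ± 0.40 (SD, n = 4) in control, -3.13 ± 0.35 (n = 6) after depletion and -3.22 ± 0.46 (n = 4) after repletion. The control arrays were at -2.99, -2.77, -2.72 and -3.60, the repletion arrays at -3.74, -2.74, -2.94 and -3.45, and the depletion arrays between -3.58 and -2.80 with a median of -3.03. The diets overlapped, and 2 of 4 repletion arrays lay above the control mean. With slide as a block Dhcr7 was at -0.48 ± 0.20 after repletion relative to control (95% interval -0.93 to -0.02, 0.719-fold, unadjusted p = 0.0436, limma adjusted p = 1.00). Only slides 1 and 2 held both diets, and within them the difference was -0.86 and -0.02. Without the block it was -0.20 ± 0.27. Leaving out single arrays gave values from -0.64, without control replicate 3, to -0.33 ± 0.25, without repletion replicate 1. Without depletion replicate 1 it was -0.43 ± 0.20 (unadjusted p = 0.0635, limma), and with that array counted as repletion -0.47 ± 0.18 (unadjusted p = 0.0262, limma). Depletion against control gave -0.29 ± 0.19 (95% interval -0.71 to 0.13), or -0.17 without depletion replicate 1, and repletion against depletion -0.18 ± 0.17 (-0.57 to 0.20), or -0.26 without it. The macrophage marker levels given above, which did not take slide into account, did not overlap between repletion and control. Any part of macrophages in the Dhcr7 difference was not tested.

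Differences between slides were tested in the same way. In limma's fit, an F test over slides given diet found 7400 of 26391 probes (28.0%) past the same adjusted threshold. Of the 8 measurable genes it called 2, Cyp27b1 and Vdr, a share no larger than that of all probes, so the count is not particular to these genes. Cyp27b1 had slide means of -2.60, -1.60, -2.24, -1.87 and -2.24 on slides 1 to 5 (limma adjusted p = 0.00186), and 92.5% of its variance over the 14 arrays lay between slides, against 0.0683% between diets. Vdr had slide means of -4.09, -5.09, -3.67, -3.75 and -3.84 (limma adjusted p = 0.00840), with 74.4% of its variance between slides and 1.34% between diets. Slide 2 thus held the highest Cyp27b1 and the lowest Vdr means, each on 3 arrays of 3 diets. The Cyp27b1 call was made in all 22 alternative settings of this test (adjusted p from 0.00143 to 0.0443). The Vdr call was made in 21 of 22 and was lost without depletion replicate 2, the lowest Vdr array (limma adjusted p = 0.0757).

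Rxrg was at the other end, with slide means between 2.42 and 2.56 and 2.18% of its variance between slides, and its diet share lay between those of Cyp27a1 and Pdia3. Diet took 20.8% of the variance of Rxra, 20.1% of that of Pdia3, 17.3% of that of Cyp27a1, 4.40% of that of Dhcr7 and 4.18% of that of Rxrb, where the median probe had 8.36%. In limma's F test over diets, the unadjusted p was 0.364 for Rxra, 0.605 for Pdia3 and 0.111 for Cyp27a1. Their adjusted p was 0.990 or higher, so these shares are not read as diet effects. Slide took 51.8% for Dhcr7 (limma adjusted p = 0.0818), 44.1% for Rxrb, 34.3% for Pdia3, 26.1% for Rxra and 17.4% for Cyp27a1, where the median probe had 46.9%. The shares for diets and slides overlap, since the diets were not spread evenly over the slides. Over all 14 arrays the SD was 0.63 for Vdr, 0.40 for Cyp27b1, 0.37 for Rxrg and for Dhcr7, 0.32 for Cyp27a1, 0.29 for Pdia3, 0.21 for Rxra and 0.16 for Rxrb, against a median of 0.34 over all probes tested. The labels do not say how slides relate to labelling or to the order of the animals.

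**Figure D4:**
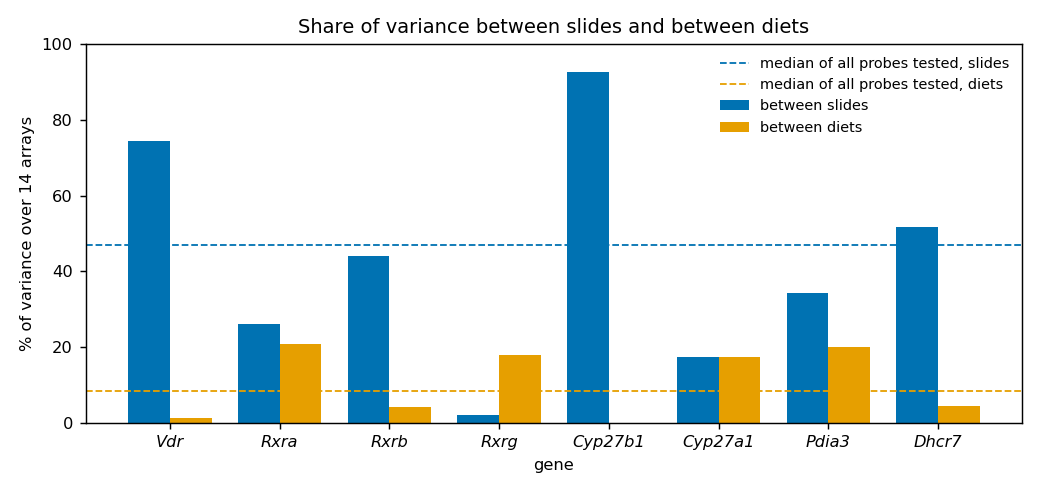
Percent of the variance over 14 arrays (vertical axis, from 0) that lay between the 5 slides and between the 3 diets for the 8 measurable genes, with the median of all 26391 probes tested as dashed lines (46.9% and 8.36%). Cyp27b1 (92.5%), Vdr (74.4%) and Dhcr7 (51.8%) stand above the slide median, and Rxrg (2.18%) is the lowest.

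The genes around the receptor were described by list, each gene by its brightest probe, and no gene of these lists passed the adjusted test in any comparison. Over all 17434 genes tested, 8064 were above and 9370 below control after depletion (median -0.02), 10219 above and 7215 below depletion after repletion (median 0.03), and 9490 above and 7944 below control after repletion (median 0.02). The comparisons share arrays, so their values are given side by side only. Ranges given with the list medians are over fits that each left out 1 array.

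Among carriers, uptake receptors and side-chain enzymes of vitamin D, with the renal and bone regulators of its synthesis, 14 of 19 genes were tested. After depletion 2 were above and 12 below control (median -0.09). After repletion 11 were above and 3 below depletion (median 0.10), and 5 above and 9 below control (median -0.07). Kl, the coreceptor of Fgf23, was at -0.65 ± 0.27 after depletion relative to control (unadjusted p = 0.0399) and at 0.35 ± 0.25 after repletion relative to depletion. The mean level of Kl, -6.94, was not far above background. Fgf23, the hormone that lowers Cyp27b1 in kidney, was at -0.24 ± 0.11 after depletion (unadjusted p = 0.0443), and Pth1r, the parathyroid hormone receptor, at -0.23 ± 0.14. Cyp11a1, a side-chain enzyme that can also act on vitamin D, was at -0.50 ± 0.33 after repletion relative to depletion and -0.54 ± 0.39 relative to control. Lrp2, the megalin receptor that takes up vitamin D with its carrier, was at 1.19 ± 0.57 after repletion relative to control, at a mean level of -7.66 near background, and Fdxr, which feeds electrons to mitochondrial cytochromes, at -0.18 ± 0.14. The list medians ranged from -0.14 to 0.00 for depletion against control, from 0.06 to 0.14 for repletion against depletion and from -0.13 to -0.03 for repletion against control. The adjusted p was 0.832 or higher for all of these in limma's test.

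Of the 24 genes of cholesterol synthesis and sterol control around Dhcr7, all were tested, with 13 above and 11 below control after depletion (median 0.06), 12 and 12 for repletion against depletion (median -0.01) and 11 and 13 for repletion against control (median -0.01). Sc5d makes the substrate of Dhcr7, 7-dehydrocholesterol. It was at -0.45 ± 0.17 after depletion relative to control (unadjusted p = 0.0229, limma adjusted p = 0.832) and at 0.37 ± 0.15 after repletion relative to depletion (unadjusted p = 0.0363, limma adjusted p = 0.933). Hsd17b7, which acts earlier in the pathway, was at 0.36 ± 0.15 and -0.27 ± 0.14 in the same comparisons, and Idi1, an isomerase of the isoprenoid steps, at 0.29 ± 0.14 after depletion. Mvd, a decarboxylase of the mevalonate steps, was at -0.25 ± 0.12 after repletion relative to depletion. Against control, repletion gave -0.25 ± 0.24 for Tm7sf2 and -0.13 ± 0.12 for Nsdhl, enzymes of the later sterol steps. The list held values on both sides of 0 in every comparison, and its medians ranged from 0.00 to 0.09, from -0.10 to 0.05 and from -0.03 to 0.06 in the order first given.

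All 22 coregulators of nuclear receptors were tested, with 12 above and 10 below control after depletion (median 0.01), 16 above and 6 below depletion after repletion (median 0.07) and 12 above and 10 below control after repletion (median 0.02). Nrip1, a corepressor of nuclear receptors in muscle and fat, had the smallest unadjusted p among the named genes. It was at 0.48 ± 0.13 after repletion relative to depletion (unadjusted p = 0.00401, limma adjusted p = 0.933) and at 0.46 ± 0.15 relative to control (unadjusted p = 0.0135, limma adjusted p = 1.00). Ncoa2, a coactivator, was at -0.44 ± 0.22 after depletion relative to control and 0.36 ± 0.20 after repletion relative to depletion, and Carm1, a histone arginine methyltransferase, at -0.23 ± 0.11 and 0.20 ± 0.10. Tcf7l2, a Wnt pathway factor, was at 0.26 ± 0.12 after depletion and 0.27 ± 0.13 after repletion, both relative to control, and Ncoa1 at 0.22 ± 0.13 after repletion relative to control. The medians of the coregulators ranged from -0.03 to 0.05, from 0.01 to 0.10 and from -0.01 to 0.08.

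Of 28 textbook target genes of the receptor, chosen from other tissues, 22 were tested. Trpv6, S100g, Calb1, Sult2a1, Abcb1a and Foxo1 were not among them. The list was not split by whether the hormone raises or lowers a gene, so its counts and medians do not measure receptor activity. After depletion 13 were above and 9 below control (median 0.05). After repletion 12 were above and 10 below depletion (median 0.02), and 9 above and 13 below control (median -0.02). Atp2b1, a calcium pump of the plasma membrane, was at 0.42 ± 0.17 after depletion (unadjusted p = 0.0336) and at 0.42 ± 0.19 after repletion (unadjusted p = 0.0497), both relative to control. Fbp1, a gluconeogenic enzyme, was at 0.39 ± 0.20 after depletion relative to control and -0.43 ± 0.18 after repletion relative to depletion (unadjusted p = 0.0407). Tnfsf11, the osteoclast factor RANKL, was at -0.40 ± 0.24 after depletion. Igfbp3, a binding protein of insulin-like growth factors, was at -0.33 ± 0.19 and Pthlh, a parathyroid hormone relative, at 0.20 ± 0.14 after repletion relative to depletion. Trpv5, an epithelial calcium channel, was at -0.28 ± 0.18 and Lpgat1, a lipid acyltransferase, at 0.18 ± 0.12 after repletion relative to control. None of these passed limma's adjusted test. Each median of the target genes changed sign in some fits, with ranges of -0.08 to 0.09, -0.04 to 0.08 and -0.03 to 0.10.

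The 15 other partners of the retinoid X receptors were all tested. After depletion 4 were above and 11 below control (median -0.06), after repletion 14 were above and 1 below depletion (median 0.09), and 6 were above and 9 below control after repletion (median -0.02). The largest value among those named was that of Nr4a1, an orphan receptor induced by contraction, at 0.54 ± 0.32 after repletion relative to depletion and 0.47 ± 0.38 relative to control. Ppard, a fatty acid sensor of muscle, was at -0.25 ± 0.13 after depletion and 0.19 ± 0.12 after repletion relative to depletion. Nr1h3, an oxysterol receptor, was at -0.23 ± 0.13 and Rarb, a retinoic acid receptor, at -0.29 ± 0.20 after depletion. After repletion Thra, a thyroid hormone receptor, was at 0.24 ± 0.15 relative to depletion. Thrb, the other thyroid hormone receptor, was at 0.25 ± 0.22 and Rara, a retinoic acid receptor, at 0.28 ± 0.17 relative to control. The list median ranged from -0.19 to 0.03 for depletion against control, from 0.03 to 0.16 for repletion against depletion and from -0.10 to 0.04 for repletion against control.

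Of 18 symbols listed for disulfide isomerases and partners of Pdia3, 15 were tested. Ero1l and Ero1lb, which were not, are older symbols of the tested Ero1a and Ero1b. The tested genes had 8 above and 7 below control after depletion (median 0.01), 7 above and 8 below depletion after repletion (median 0.00) and 5 above and 10 below control after repletion (median -0.04). Pdia5 was at -0.30 ± 0.13 (unadjusted p = 0.0393), Erp29, a chaperone of the same fold, at -0.49 ± 0.21 (unadjusted p = 0.0489) and Hspa5, the main chaperone of the endoplasmic reticulum, at -0.41 ± 0.24 after repletion relative to depletion. Ero1b, an oxidase that recharges these isomerases, was at 0.37 ± 0.21, Erp29 at 0.26 ± 0.22 and Canx, the lectin chaperone that can work with Pdia3, at -0.15 ± 0.13 after depletion relative to control. The mean level of Ero1b, -7.31, was near background. Relative to control, repletion gave -0.16 ± 0.15 for Pdia5, 0.11 ± 0.10 for Erp44 and -0.23 ± 0.26 for Erp29. The adjusted p of limma's test was 0.832 or higher for each, and the medians ranged from -0.09 to 0.05, from -0.05 to 0.04 and from -0.09 to 0.04.

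**Figure D5:**
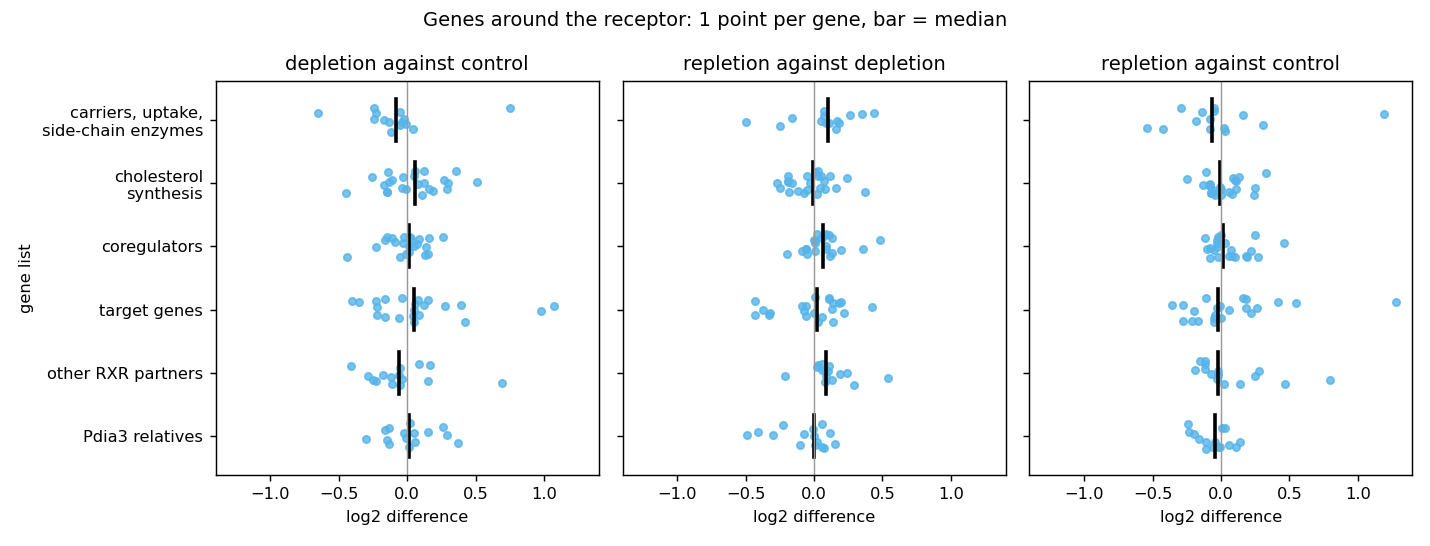
Log2 difference between diets with slide as a block (horizontal axis) of each tested gene of 6 lists around the receptor, 1 point per gene, with the list median as a bar, in 3 comparisons. Medians lie between -0.09 and 0.10, and no gene passed the adjusted test.

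The genes whose levels most resembled a member over the 14 arrays were taken after each array's slide mean was removed, as a description and with no test. They were picked from the 17434 genes tested, less those without a value on all 14 arrays. Genes with placeholder symbols (beginning with LOC or RGD, or ending in Rik) were also left out. Genes left out may resemble a member more closely. For Vdr these were Lonrf1 (Pearson r = 0.948), Abcc12 (0.908) and Map4k1 (0.904). Rxra was most like Eloa (0.949), Or13a19c (0.948) and Alkbh5 (0.945). Rxrg was most like Dis3l (0.988), Tpm1 (0.982) and Eepd1 (0.965), the highest values among the 5 members examined. Cyp27a1 was most like Krtap5-8 (0.956), Arl3 (0.948) and Dcaf11 (0.945), and Dhcr7 like Tnfrsf21 (0.908), Iqce (0.895) and Pfas (0.894). All of these share the same arrays and scaling, and Abcc12 and Or13a19c, at mean levels of -7.22 and -7.64, lay near background.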

How the data were processed

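Total RNA from 14 plantaris muscles was labelled with Cy3 and hybridised in 1 colour, per the labels' protocols. Per the file headers, the deposited scanner files give an intensity per spot, and their processed signal was background-subtracted and detrended array by array, without scaling across arrays. The submitters' processing notes name Agilent Feature Extraction 11.5.1.1 and limma without a version. The authors also deposited a table of 1 log2 value per probe (26902 probes, with 1 of the 2 Cyp24a1 probes and without Cyp2r1). How it was background-corrected and scaled is not stated in the labels, and it served as an alternative.

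Of 44254 spots per array, 42877 were not controls. No spot was saturated, and spots that the scanner software marked as outliers (0.669% to 1.05% per array, none of a member) were left out. A probe's level was the mean over its spots of log2 processed signal minus log2 of the array's 75th percentile. Of 30367 probes, 18438 were named through their accession in a RefSeq gene table, 3168 through their symbol and 419 through a synonym, 1820 by the file's own name, and 6522 had no name. Tested probes (26391) had to be well above background on 4 or more of the 14 arrays, with 2 or more values in each diet. Arrays were grouped by title and fitted in 1 model with limma 3.58.1 (R 4.3.3), with slide as a block and Benjamini-Hochberg adjustment over all probes. The fit was run on simulated data with planted log2 changes of 1 or 2, larger than any fitted difference of a member. That run does not bear on whether differences as small as those of the members could be called. Python 3.11.15, numpy 2.4.6, pandas 2.3.3 and matplotlib 3.10.9 were used for tables and plots. From each gene list, the 3 genes with the smallest unadjusted p per comparison are named, and for 5 members the 3 genes most like them among those not left out. The result of 1 gene under this rule is not reported here. The members, lists and tests were chosen with earlier results of these data known. Alternatives were no block, slide as a random block, replicate number as a block, depletion replicate 1 counted as repletion, quantile normalization, normexp (offset 50), centring on the median, the authors' values, 2 other filters, outlier spots kept, only the groups compared, and each array left out in turn.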

Additional observations from a re-analysis of the deposited data

Results flagged for a closer look

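In 3 of the 24 groups of arrays examined (8 measurable genes in 3 diets), 1 array stood apart from the rest of its group by Dixon's criterion, which chance meets in about 1 group in 20. Rxrb on depletion replicate 1 was the lowest of its group, at -0.13 against 0.09 for the nearest array. Rxrg on depletion replicate 3 was the highest of its group, at 2.99 against 2.32. Cyp27a1 on repletion replicate 4 was the highest of its group, at 0.14 against -0.33. Depletion replicate 1 is the array whose diet field goes against its title. None of these spots was marked as an outlier by the scanner software, and the cause was not tested.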

How the results depend on the processing

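Over 26 alternative settings, limma called 0 probes in each of the 3 diet comparisons, and 0 in the F test over diets in each of its 25, with lowest adjusted p of 0.121 (depletion against control), 0.731 (repletion against depletion), 0.361 (repletion against control) and 0.748 (any diet). Of 624 alternative values of the members' differences, 578 kept their sign and 0 were called. The count of probes that differed between slides was 7400, and 2107 with normexp, which also moved the median of all probes to -0.14 for depletion against control and -0.12 for repletion against control. Repletion against depletion of Cyp27b1 turned to -0.01 without the slide block, -0.01 with quantile normalization, -0.02 with median centring and -0.01 with only the groups compared, and that of Cyp27a1 to -0.07 with depletion replicate 1 counted as repletion. Repletion against control turned to 0.05 for Vdr, 0.01 for Rxrb and 0.08 for Cyp27b1 with only the groups compared, and to -0.14 for Rxra with normexp. With single arrays left out, depletion against control ran from -0.11 to 0.04 for Cyp27b1. Repletion against depletion ran from -0.02 to 0.18 for Rxrb, -0.04 to 0.15 for Cyp27b1 and -0.06 to 0.23 for Cyp27a1. Repletion against control ran from -0.30 to 0.03 for Vdr, -0.17 to 0.16 for Rxra, -0.15 to 0.04 for Rxrb, -0.10 to 0.36 for Rxrg, -0.14 to 0.05 for Cyp27b1 and -0.14 to 0.10 for Pdia3. The median of the cholesterol list for repletion against depletion ran from -0.10 to 0.05. The causes were not tested. The mean of a gene's probes was not run, since each measurable member has 1 probe. Cyp24a1 and Cyp2r1 were limited by signal over background.

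Same-numbered arrays did not deviate together in every pair (r from -0.49 to 0.72), so the numbers were not taken to pair the rats. With the replicate number as a block in place of slide, 0 probes were called in each comparison, and Cyp27b1 in repletion against depletion was at -0.03.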
